A study of Mus musculus with 24 samples.

Results

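The data described here are the transcript levels of 45 genes of cell division in differentiated mouse embryonic stem (mES) cells with and without REV-ERBα and REV-ERBβ. Of these genes, 19 act in S phase, when the genome is copied, and 26 act from the end of S phase to the end of mitosis, when the copies are parted. They were chosen by symbol from the 33079 genes of the deposited table of exon reads (RPKM, reads scaled to the length of the exons and to the library total), in which each symbol matched 1 gene. All 45 had a mean above 0.5 RPM (reads scaled to the library total alone) in WT or in KO, the filter that 15112 genes of the table passed.

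Both genotypes descend from mES cells with the Per2::Luciferase knock-in, a light-emitting reporter of the clock gene Per2. The WT cells are the control. In the KO cells an exon of Rev-erbβ (Nr1d2) and then an exon of Rev-erbα (Nr1d1) were removed with CRISPR/Cas9, and mutant lines were raised from picked colonies, so that the genotype and the cell line cannot be told apart. Cells of both lines were grown as embryoid bodies, plated, and treated at day 28 of differentiation with the glucocorticoid dexamethasone (100 nM), which brings the clocks of the cells into step. RNA of 3 embryoid bodies was pooled for each library, and each genotype has 12 libraries, 1 at every 4 h from 12 to 56 h after dexamethasone, without a second library at any hour. The p-values below therefore measure the spread between libraries taken at different hours. Summed over all exons, Nr1d1 lay between 3.58 and 7.48 RPKM in WT and between 2.48 and 9.74 RPKM in KO, and Nr1d2 between 0.895 and 3.02 RPKM in WT and between 1.38 and 5.27 RPKM in KO; these sums include exons that were not deleted, so the genotype of a library rests on its label. The embryoid bodies hold a mixture of cell types. The 8 fibroblast markers summed to a median of 3181 RPKM over WT and 3530 RPKM over KO. The 10 pluripotency markers summed to a median of 15.1 RPKM over WT and 15.2 RPKM over KO. Most of this was Klf4, with means of 12.3 and 12.5 RPKM. The pluripotency gene Zfp42 did not exceed 0.223 RPKM in any library. Pou5f1 had a median of 0.165 RPKM across WT and 0.401 RPKM across KO, with single libraries at up to 4.73 and 2.90 RPKM.

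A dividing cell switches on its S-phase genes at the end of G1, when E2F transcription factors are freed from the retinoblastoma family of pocket proteins. The mitotic genes follow in G2, through B-MYB and FOXM1, which act on promoters that carry a CHR element (cell cycle genes homology region) and CCAAT boxes bound by NF-Y. In resting cells the pocket proteins hold both groups down as part of the DREAM complex. For this reason the RNA of these genes is widely read as a sign of dividing cells in a tissue. In bulk RNA such as this, fewer dividing cells and less RNA per dividing cell cannot be told apart.

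The promoters of the 45 genes carry these elements to different degrees, and 6 of them are shown because the results below turn on these genes and their promoters hold the elements searched for. RefSeq promoter sequences (GRCm38.p6, 250 bases before to 50 after the start) matched 35 of the 45 genes, and 11414 of the 15112 genes tested. In the sequences below, given 5′ to 3′ on the strand of the gene, capitals mark E2F-like letters (TTCCCGC, or its forms TTCGCGC, also TTGCCGC, also TTGGCGC), CHR letters (TTTGAA, or its form TTCGAA) and CCAAT, each on either strand; in Mcm5, 2 E2F-like matches on opposite strands overlap. The first 3 are S-phase genes and the last 3 mitotic genes.
Rrm2, chr12:24708004-24708303, plus strand: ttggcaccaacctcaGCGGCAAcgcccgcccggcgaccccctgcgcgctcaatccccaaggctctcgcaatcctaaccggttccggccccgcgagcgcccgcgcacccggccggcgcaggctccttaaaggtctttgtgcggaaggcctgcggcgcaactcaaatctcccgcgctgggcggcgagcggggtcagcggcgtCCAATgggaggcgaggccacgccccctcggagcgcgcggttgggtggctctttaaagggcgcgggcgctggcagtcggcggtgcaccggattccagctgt
Mcm5, chr8:75109259-75109558, plus strand: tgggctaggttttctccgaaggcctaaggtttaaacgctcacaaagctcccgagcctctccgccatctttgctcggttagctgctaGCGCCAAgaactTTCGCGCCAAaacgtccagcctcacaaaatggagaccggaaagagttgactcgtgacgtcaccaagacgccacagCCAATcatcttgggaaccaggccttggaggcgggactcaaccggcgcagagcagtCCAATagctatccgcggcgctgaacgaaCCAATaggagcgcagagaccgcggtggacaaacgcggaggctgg
Cdc45, chr16:18811923-18812222, minus strand: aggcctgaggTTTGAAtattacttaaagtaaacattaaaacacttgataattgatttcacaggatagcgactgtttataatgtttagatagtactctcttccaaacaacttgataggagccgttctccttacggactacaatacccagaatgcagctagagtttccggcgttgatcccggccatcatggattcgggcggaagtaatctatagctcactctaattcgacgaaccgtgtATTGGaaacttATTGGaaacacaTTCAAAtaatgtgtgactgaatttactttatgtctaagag
Cdk1, chr10:69352863-69353162, minus strand: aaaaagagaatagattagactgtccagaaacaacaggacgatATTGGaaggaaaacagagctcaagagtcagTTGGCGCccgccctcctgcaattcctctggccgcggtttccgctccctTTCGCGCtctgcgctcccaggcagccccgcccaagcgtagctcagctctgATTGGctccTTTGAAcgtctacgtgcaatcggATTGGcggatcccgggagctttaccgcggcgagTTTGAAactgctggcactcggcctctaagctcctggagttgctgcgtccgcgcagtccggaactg
Plk1, chr7:122159185-122159484, plus strand: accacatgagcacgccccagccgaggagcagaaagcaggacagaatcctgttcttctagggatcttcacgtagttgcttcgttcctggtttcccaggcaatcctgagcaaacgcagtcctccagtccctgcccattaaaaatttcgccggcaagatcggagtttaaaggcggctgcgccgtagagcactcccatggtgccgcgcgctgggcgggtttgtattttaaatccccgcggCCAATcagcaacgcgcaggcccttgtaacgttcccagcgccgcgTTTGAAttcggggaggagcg
Mki67, chr7:135716330-135716629, minus strand: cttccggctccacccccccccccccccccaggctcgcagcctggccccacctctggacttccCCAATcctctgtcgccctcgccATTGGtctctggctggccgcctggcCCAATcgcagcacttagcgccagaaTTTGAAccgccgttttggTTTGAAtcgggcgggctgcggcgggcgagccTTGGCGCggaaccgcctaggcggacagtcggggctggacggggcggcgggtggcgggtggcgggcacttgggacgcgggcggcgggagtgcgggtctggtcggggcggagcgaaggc

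Counted from the start, the E2F-like match of Rrm2 begins at position -235 and its CCAAT at -50. Mcm5 held 3 E2F-like matches and 3 CCAAT. In Plk1 the CHR match begins at position 31 and the CCAAT at -14, and Cdk1 and Mki67 held all 3 kinds. E2F-like letters were found in 8 of 15 S-phase promoters (53.3%) and in 3 of 20 mitotic promoters (15%), beside 16.5% of all promoters matched. CHR letters showed the opposite order, with 3 of 15 S-phase promoters (20%), 16 of 20 mitotic promoters (80%) and 13.6% of all. A CCAAT was present in 9 of 15 (60%), 18 of 20 (90%) and 38.0%, and a CHR and a CCAAT stood together in 3 of 15 (20%), 16 of 20 (80%) and 5.69%. The promoters of Ccne1, Tyms, E2f1 and Mybl2 among the S-phase genes, and of Nusap1 and Birc5 among the mitotic genes, held none of these letters in the window. A match is a description of the sequence and does not show that a factor binds there.

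The S-phase genes were on the whole the more abundant and the steadier group. Their mean levels ran from 0.231 RPKM (Cdc6) to 12.6 RPKM (Rrm1) in WT with a median of 3.25 RPKM, and from 0.268 to 12.7 RPKM in KO with a median of 3.65 RPKM, with Cdc6 and Rrm1 again at the ends. The mitotic genes ran from 0.333 RPKM (Cenpf) to 3.42 RPKM (Ube2c) in WT with a median of 1.40 RPKM, and from 0.398 to 4.16 RPKM in KO with a median of 1.75 RPKM. Behind a value of 1 of these genes in 1 library stood between 5.5 and 1118 fragments, with a median of 87.5, and the fewest were those of Cdc25c. Across the 12 libraries of a genotype, the coefficient of variation (SD over mean, here the change over time and the noise between libraries together) had a median of 20.1% in WT and 16.5% in KO for the S-phase genes and of 43.6% in WT and 32.9% in KO for the mitotic genes, beside 9.99% and 9.87% for all genes tested. Every mitotic gene in WT and 25 of 26 in KO lay above the upper quartile of all genes (18.1% and 17.7%), as did 10 and 6 of the 19 S-phase genes. Rrm1, the large subunit of ribonucleotide reductase, was the steadiest, at 3.96% in WT and 6.59% in KO, and its highest library was 1.13-fold above its lowest in WT. Cdc25c, a phosphatase that activates CDK1, spanned 5.58-fold in WT.

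The first comparison asked whether loss of the REV-ERBs shifted the level of these genes over the whole time course. Of the 19 S-phase genes 4 were higher in KO and none was lower, in limma with Benjamini-Hochberg adjustment over all genes (adjusted p under 0.05). Over all 15112 genes, 11.2% were higher and 14.7% lower in KO, so 4 of 19 called higher was above the background by few genes. The 4 are Ccne1 and Ccne2, the E cyclins that drive entry into S phase, Rrm2, the small subunit of ribonucleotide reductase that makes deoxynucleotides, and Cdc45, a part of the active replicative helicase. Of the other S-phase genes, 14 had a higher estimate in KO and 1, Tyms, a lower one, and the median difference over the 19 was 0.18 log2 (KO minus WT) beside -0.013 log2 for all genes tested. At an unadjusted p under 0.05 the count was 6 of 19, all higher in KO, beside 16.3% of all genes in that direction.

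Ccne1, on chromosome 7, ranged from 1.85 to 3.45 RPKM in WT (median 2.51) and from 2.86 to 4.19 RPKM in KO (median 3.50). In 7 KO libraries its level was above every WT library, and in 10 WT libraries below every KO library, and the libraries that overlapped included WT 20 h at 3.45 RPKM and KO 52 h at 2.86 RPKM. The difference was 0.43 ± 0.073 (SE) on the log2(RPKM + 0.1) scale, higher at 12 of 12 time points (limma, adjusted p = 0.00015). Rrm2 ranged from 5.11 to 8.27 RPKM in WT (median 6.20) and from 7.10 to 11.6 RPKM in KO (median 7.68), with 5 KO libraries above every WT library. Its difference of 0.39 ± 0.093 (SE) log2, again at 12 of 12 time points, had an adjusted p of 0.003. The large subunit Rrm1 ranged from 12.0 to 13.6 RPKM in WT (median 12.4) and from 11.6 to 14.8 RPKM in KO (median 12.7), a difference of 0.012 ± 0.033 (SE) log2 (limma, adjusted p = 0.82). Rrm1 and Rrm2 form the same enzyme, and whether their differences differ from each other was not tested.

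Cdc45 ranged from 0.427 to 1.05 RPKM in WT (median 0.619) and from 0.593 to 1.26 RPKM in KO (median 0.829), and its difference of 0.36 ± 0.13 (SE) log2, higher at 11 of 12 time points, passed narrowly (limma, adjusted p = 0.046). For Ccne2 the range was from 0.653 to 0.977 RPKM in WT (median 0.853) and from 0.767 to 1.25 RPKM in KO (median 0.937), with a difference of 0.20 ± 0.074 (SE) log2 at 10 of 12 time points (limma, adjusted p = 0.046). Both genotypes overlapped in Cdc45 and Ccne2. These 2 calls lay close to the threshold. Leaving out 1 library at a time moved the limma adjusted p of Cdc45 between 0.021 and 0.081 and that of Ccne2 between 0.024 and 0.083, with differences that stayed between 0.32 and 0.42 log2 and between 0.17 and 0.23 log2. The Cdc45 call was lost in 16 and the Ccne2 call in 13 of the 24 omissions, both of them without WT 24, 28, 32, 36, 40, 48 or 52 h and without KO 12, 16, 20, 24, 32 or 36 h, and Cdc45 also without WT 44 h or KO 40 or 48 h. Ccne1 and Rrm2 passed whichever library was left out, with limma adjusted p values of at most 0.00037 and 0.007. Without WT 20 h, the library with the highest S-phase mean in WT, the count was 7 of 19, with E2f1, Gins2 and Mcm3 added. The share of all genes called higher in that fit is not given here, so the rise has no background. Cdc45 was named here after its values were seen, because it is 1 of the 4 called.

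The remaining S-phase genes are taken by role, and none of them passed in the comparison of the 12 WT with the 12 KO libraries. The 6 subunits of the MCM helicase, which opens the DNA ahead of the fork, had differences from 0.045 log2 (Mcm4) to 0.22 log2 (Mcm5). Mcm2 ranged from 2.69 to 5.23 RPKM in WT (median 3.49) and from 3.03 to 5.18 RPKM in KO (median 3.91). Mcm5, the subunit with the largest estimate, ranged from 1.52 to 4.50 RPKM in WT (median 2.34) and from 2.03 to 4.61 RPKM in KO (median 3.16). WT and KO overlapped widely in both. Among the other replication factors, the helicase activators had larger estimates than the clamp and the origin factors. Pcna, the sliding clamp that holds the polymerases to DNA, ranged from 9.70 to 14.6 RPKM in WT (median 10.9) and from 10.5 to 13.6 RPKM in KO (median 12.5), a difference of 0.093 ± 0.066 (SE) log2 (limma adjusted p = 0.32). Cdc6 and Cdt1, which load the helicase on origins, differed by 0.16 and 0.092 log2, and Gins1 and Gins2, which complete the active helicase with CDC45, by 0.24 and 0.25 log2, with limma adjusted p values from 0.079 (Gins2) to 0.48 (Cdc6). Tyms, the thymidylate synthase, was the exception in direction. It ranged from 1.40 to 2.04 RPKM in WT (median 1.54) and from 1.14 to 1.84 RPKM in KO (median 1.57) and KO exceeded WT at 3 of 12 time points, a difference of -0.10 ± 0.078 (SE) log2 (limma adjusted p = 0.35). Of the transcription factors, E2f1 ranged from 2.27 to 3.88 RPKM in WT (median 2.73) and from 2.69 to 3.53 RPKM in KO (median 3.17), a difference of 0.17 ± 0.067 (SE) log2 (limma adjusted p = 0.057). Mybl2, which encodes B-MYB, ranged from 0.17 to 0.705 RPKM in WT (median 0.428) and from 0.248 to 0.933 RPKM in KO (median 0.512), a difference of 0.21 ± 0.19 (SE) log2 (limma adjusted p = 0.45). E2f1, higher in KO at 10 of 12 time points, was the next gene in order of p after the 4 called, and it passed with quantile normalization (limma adjusted p = 0.029) or with the slope and 24 h terms as covariates (0.020).

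None of the 26 mitotic genes passed the test for genotype, although all 26 had a higher estimate in KO. Their median difference was 0.27 log2, larger than that of the S-phase genes, and the estimates ran from 0.076 log2 (Foxm1) to 0.44 log2 (Bub1b). Their standard errors were also larger, with a median of 0.20 log2 beside 0.093 log2 for the S-phase genes. At an unadjusted p under 0.05, limma counted 3 of 26 beside 16.3% of all genes higher in KO, and this count moved between 0 and 10 when 1 library was left out. It was 10 without WT 12 h (16.1% of all genes), 9 without WT 20 h (17.9%) and 0 without WT 24, 28 or 52 h or KO 12, 16 or 20 h (15.0% to 16.0%). In 15 of the 26 genes at least 10 of 12 time points were higher in KO, but time points of 1 gene and genes of 1 library are not independent, since most of these genes moved together.

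The 3 smallest p values were those of Prc1, Cdk1 and Plk1. Prc1, which bundles the microtubules of the spindle midzone, ranged from 0.993 to 2.65 RPKM in WT (median 1.35) and from 1.38 to 2.90 RPKM in KO (median 2.13), a difference of 0.40 ± 0.17 (SE) log2 (limma adjusted p = 0.093). Cdk1, the kinase that starts mitosis, ranged from 1.48 to 3.01 RPKM in WT (median 2.10) and from 1.92 to 3.70 RPKM in KO (median 2.62), a difference of 0.30 ± 0.13 (SE) log2 (limma adjusted p = 0.096). Plk1, a kinase of spindle assembly and exit, ranged from 0.933 to 2.95 RPKM in WT (median 1.34) and from 1.13 to 3.40 RPKM in KO (median 2.20), a difference of 0.41 ± 0.20 (SE) log2 (limma adjusted p = 0.13). In each of the 3 genes the genotypes overlapped over most of their range. Prc1 alone passed when WT 12 h or WT 56 h was left out, with a limma adjusted p of 0.047 at the lowest.

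The partners of Cdk1 had similar differences with more spread. Ccna2, cyclin A2, which serves in S phase as well, ranged from 1.82 to 4.14 RPKM in WT (median 2.47) and from 2.10 to 4.97 RPKM in KO (median 2.88), a difference of 0.23 ± 0.17 (SE) log2, and Ccnb1, cyclin B1, ranged from 0.678 to 3.49 RPKM in WT (median 1.33) and from 1.04 to 3.38 RPKM in KO (median 1.87), a difference of 0.33 ± 0.26 (SE) log2. Ccnb2 differed by 0.32 ± 0.20 (SE) log2. Of the phosphatases that activate CDK1, Cdc25b differed by 0.12 and Cdc25c by 0.26 log2. Mki67, the coat protein of mitotic chromosomes used to count dividing cells, ranged from 0.591 to 1.89 RPKM in WT (median 0.947) and from 0.779 to 2.39 RPKM in KO (median 1.23), a difference of 0.39 ± 0.21 (SE) log2, and Top2a, the topoisomerase that untangles sister chromatids, ranged from 1.5 to 5.29 RPKM in WT (median 2.37) and from 1.74 to 5.31 RPKM in KO (median 2.96), a difference of 0.24 ± 0.22 (SE) log2. The limma adjusted p values of these 7 genes lay between 0.19 (Mki67) and 0.46 (Top2a).

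The genes of the spindle, centromere and checkpoint had differences of similar size, and none passed. Aurkb, the kinase of the chromosomal passenger complex, ranged from 0.731 to 2.43 RPKM in WT (median 1.07) and from 0.767 to 2.21 RPKM in KO (median 1.52), a difference of 0.25 ± 0.19 (SE) log2, with wide overlap. Its partner Birc5, or survivin, ranged from 1.26 to 3.91 RPKM in WT (median 1.70) and from 1.61 to 4.05 RPKM in KO (median 2.26), a difference of 0.28 ± 0.19 (SE) log2. Aurka, of the spindle poles, differed by 0.20 log2. The checkpoint kinases Bub1 and Bub1b differed by 0.36 and 0.44 log2, and Cdc20 and Ube2c, which serve the anaphase-promoting complex, by 0.34 and 0.33 log2. The centromere genes Cenpa, Cenpe and Cenpf lay between 0.21 and 0.22 log2. The kinesins and other spindle genes (Kif11, Kif20a, Kif23, Nusap1, Prc1 and Tpx2) spread from 0.096 log2 (Nusap1) to 0.40 log2 (Tpx2). Foxm1, the transcription factor of the group, ranged from 0.710 to 1.72 RPKM in WT (median 1.05) and from 0.731 to 1.84 RPKM in KO (median 1.15) and had the smallest difference, 0.076 ± 0.16 (SE) log2 (limma, adjusted p = 0.76), higher in KO at 5 of 12 time points.

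**Figure D1:**
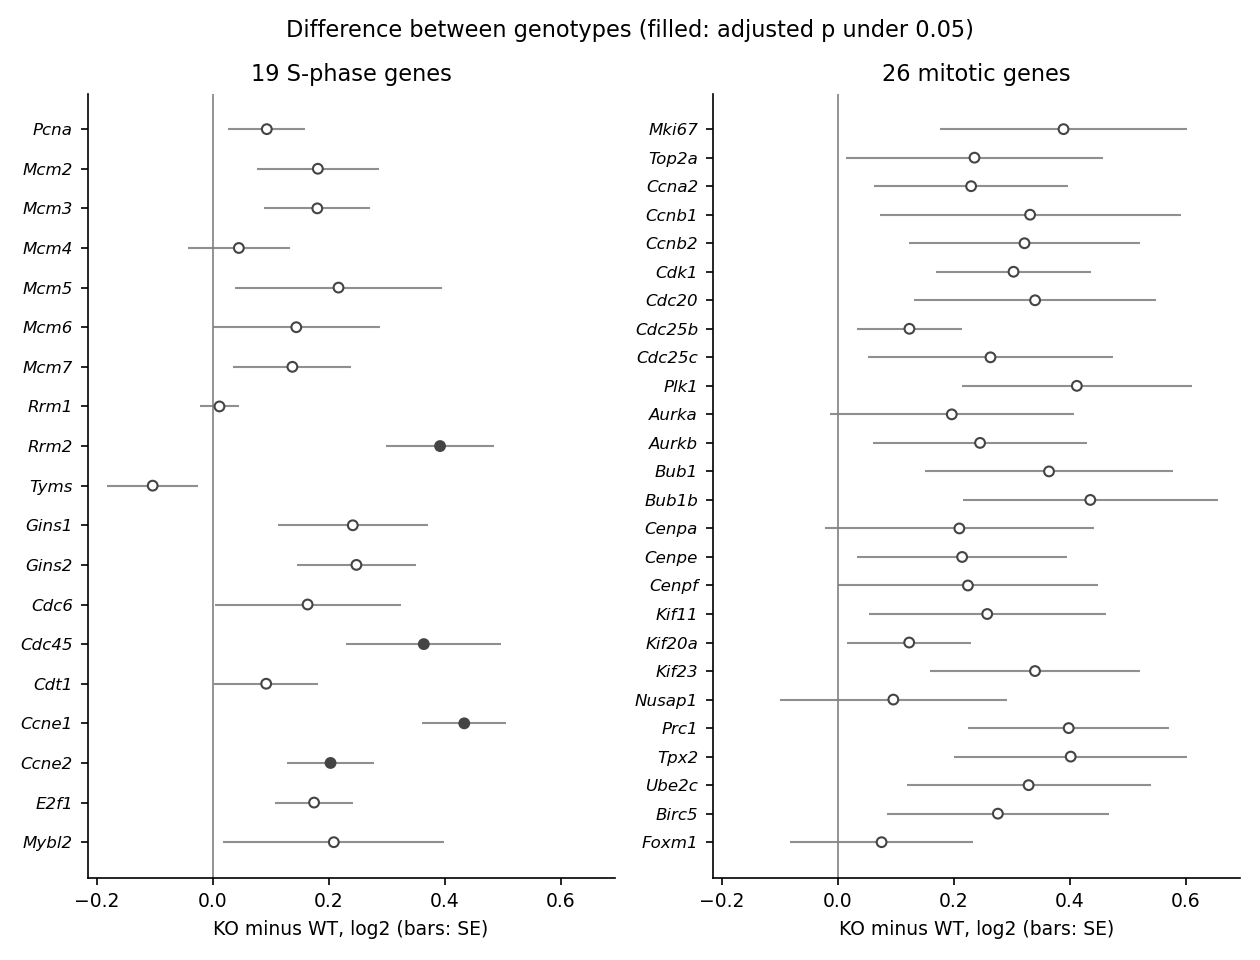
Difference between genotypes (KO minus WT, log2, horizontal axis) for each of the 19 S-phase and 26 mitotic genes, with bars of 1 SE from limma over 12 WT and 12 KO libraries and filled points where the adjusted p was under 0.05. Of 45 points only Tyms lies below 0, and the 4 filled points are Rrm2, Cdc45, Ccne1 and Ccne2.

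**Figure D2:**
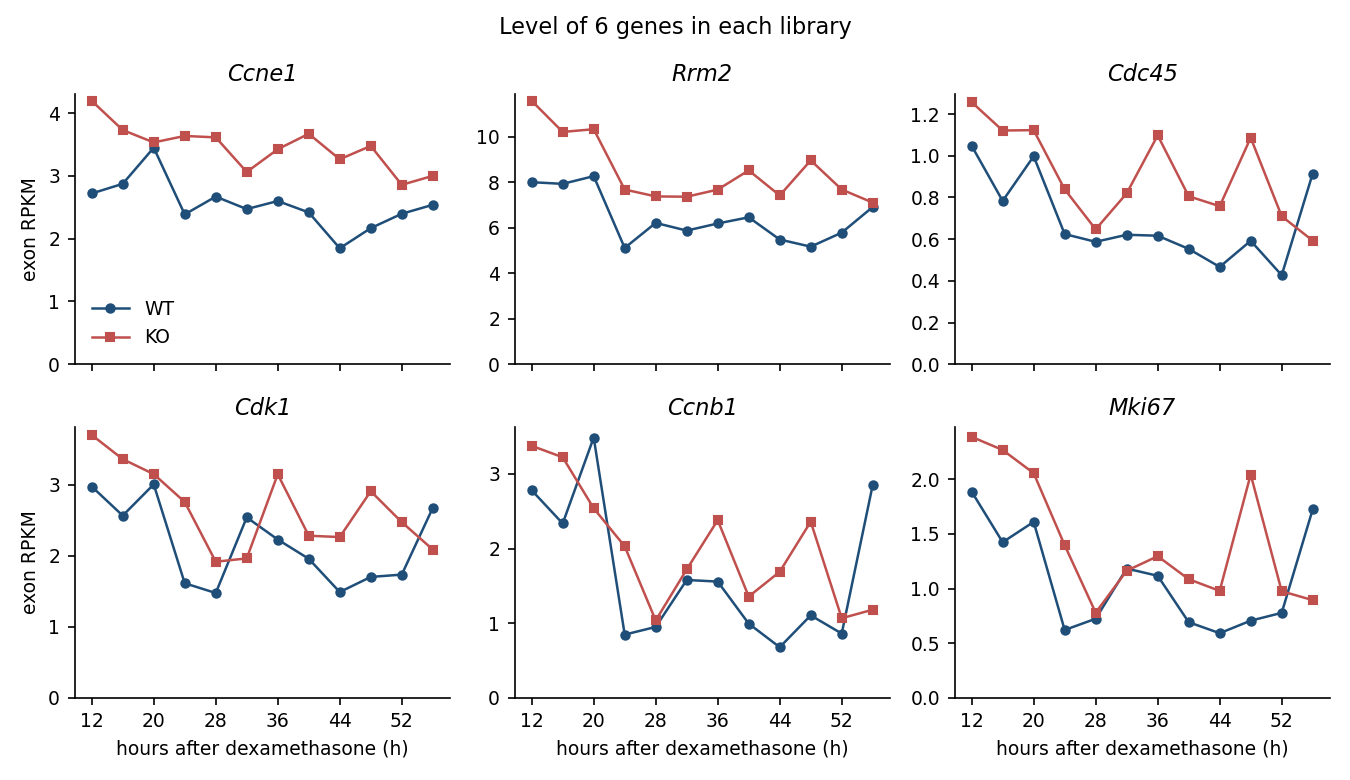
Exon RPKM (vertical axis, from 0) of 3 S-phase genes and 3 mitotic genes in each library, against hours after dexamethasone, with WT as circles and KO as squares. KO lies above WT at all 12 time points for Ccne1 and Rrm2. For Cdk1, Ccnb1 and Mki67, WT is above KO at 56 h, and KO is above WT from 36 to 52 h.

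The libraries of a genotype differed from one another, and most genes of a group moved together. For the mean log2 level of the S-phase genes the SD between libraries was 0.238 in WT and 0.216 in KO, around means of 1.38 and 1.56. For the mitotic genes it was 0.507 and 0.409, around means of 0.390 and 0.665. Cdc25b went another way, with its highest WT level at 24 h and its lowest KO level at 16 h. The mean log2 level over the 26 mitotic genes ranged from -0.18 (44 h) to 1.13 (12 h) in WT, a 2.48-fold span, and from 0.082 (28 h) to 1.27 (12 h) in KO, a 2.28-fold span. For the 19 S-phase genes the mean ranged from 1.09 (44 h) to 1.796 (20 h) in WT, a 1.64-fold span, and from 1.29 (28 h) to 1.91 (16 h) in KO, a 1.53-fold span. The 4 highest WT libraries were 12, 16, 20 and 56 h for both groups, and 12, 16 and 20 h were among the 4 highest KO libraries for both.

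At 12, 16 and 20 h, between 17 and 19 of the 19 S-phase genes and 25 or 26 of the 26 mitotic genes were above their own mean in each genotype. At 28 h the count was 1 S-phase gene and 0 mitotic genes in WT, and 2 and 0 in KO. In the later libraries WT and KO were high at other hours, a difference that was not tested by itself. In WT, 17 of 19 S-phase and 26 of 26 mitotic genes were above their mean at 56 h, but no more than 1 of each group at 44, 48 or 52 h. In KO, 15 of 19 and 24 of 26 were above at 48 h, 15 and 22 at 36 h and 8 and 20 at 24 h, and 0 of either group at 56 h. The KO mean was above the WT mean at 10 of 12 time points in each group; the exceptions were 20 h (-0.049 log2 for the S-phase and -0.094 log2 for the mitotic mean) and 56 h (-0.33 and -0.87 log2), and the largest excess of the mitotic mean was at 24 h (0.89 log2) and 48 h (0.87 log2).

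Since each time point is 1 pool of 3 embryoid bodies, the hour and the pool cannot be told apart. Markers of neural progenitors (8 genes, such as Sox2, Nes and Fabp7) were highest in WT 56 h and KO 48 h: their summed level had a median of 8.85 RPKM in WT and reached 21.1 RPKM at 56 h, and had a median of 7.05 RPKM in KO and reached 21.6 RPKM at 48 h. At the other late hours with many division genes above their mean in KO they were near or below that median, with 6.83 RPKM at 36 h and 7.36 RPKM at 24 h. They were above the WT median at 44 h (12.2 RPKM), when the division genes were low, and at 36 h (13.7 RPKM). They were not uniformly high at the early hours, with 13.1, 6.10 and 13.7 RPKM at 12, 16 and 20 h in WT and 7.33, 12.9 and 9.76 RPKM in KO. The other marker lists peaked at various hours, given here for WT and then KO. Endoderm and endothelial markers were highest at 16 h, and macrophage markers at 20 h, in both. Pluripotency markers were highest at 20 and 12 h, neuron markers at 36 and 48 h and smooth muscle markers at 16 and 20 h. For fibroblast markers it was 28 and 12 h, and for epithelial markers 16 and 40 h. For cardiomyocyte markers it was 24 and 52 h, and for erythroid markers 32 and 36 h. The part of these cell types in the levels of the division genes was not tested. WT 56 h and KO 48 h were then left out, a selection made after the values were seen. The count for genotype was 3 of 19 S-phase genes (Ccne1, Ccne2 and Rrm2) and 0 of 26 mitotic genes. The median differences over the 19 and the 26 genes were 0.20 and 0.31 log2. The share of all genes called in that fit is not given here.

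**Figure D3:**
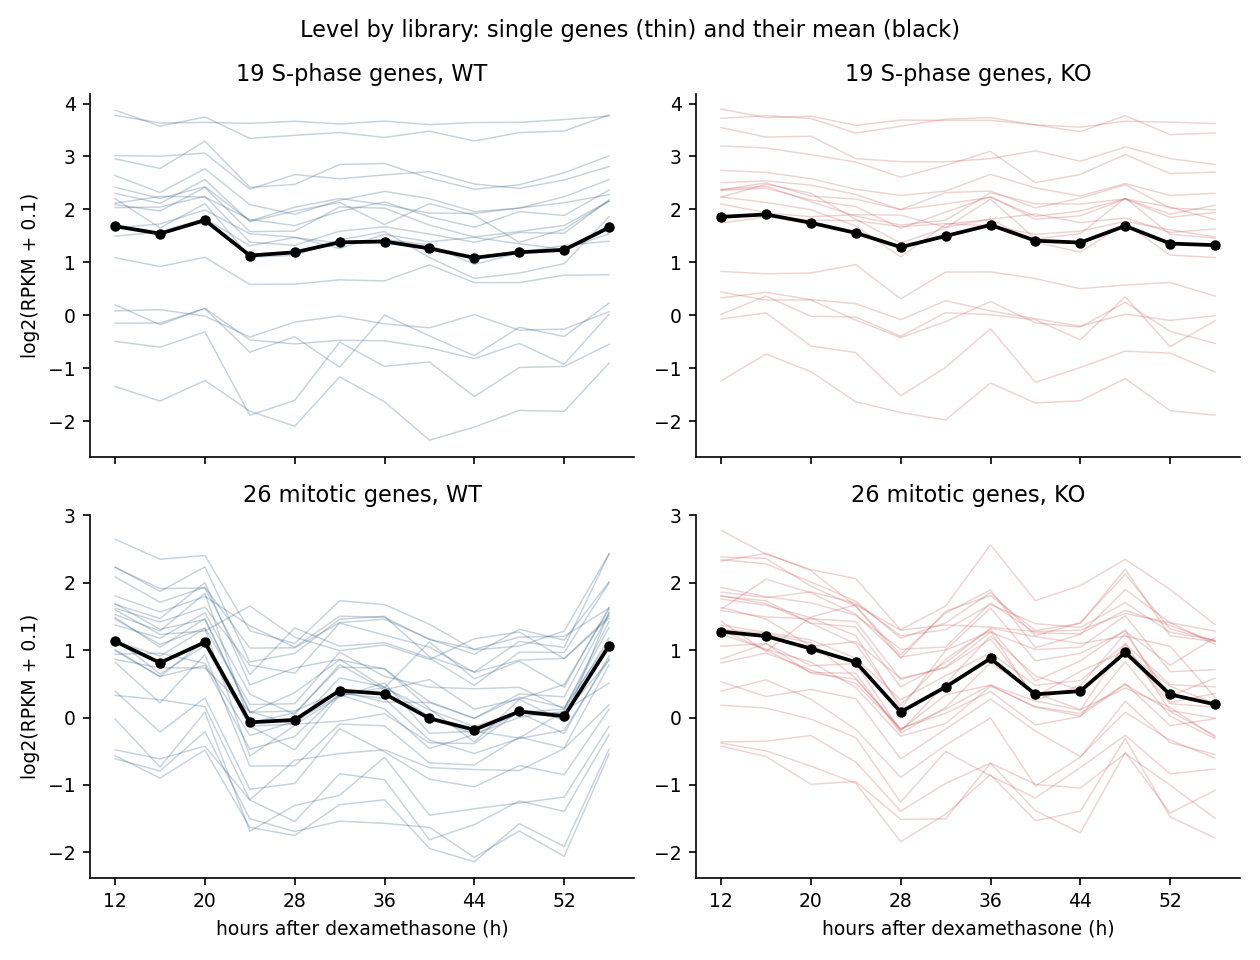
Level of the S-phase genes (upper panels) and mitotic genes (lower panels) as log2(RPKM + 0.1) against hours after dexamethasone in WT (left) and KO (right), with a thin line for each gene and black points for their mean in each library. Most lines of a panel move together. They start high at 12 to 20 h, and late peaks stand at 56 h in WT and at 36 and 48 h in KO.

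The second comparison asked whether the levels changed steadily over the 44 h of sampling. Slopes were fitted within each genotype, beside a 24 h cosine and sine, and are given as log2 per 24 h. No S-phase or mitotic gene had a slope that passed the test in WT, where 1.11% of all genes went up and 1.26% went down, nor in KO, where 1.34% went up and 1.04% went down (limma, adjusted p under 0.05). Nearly all estimates were nevertheless negative, namely 16 of 19 S-phase and 26 of 26 mitotic genes in WT and 18 of 19 and 26 of 26 in KO, beside 46.7% and 54.1% of all genes. The median slope of the S-phase genes was -0.085 in WT and -0.17 in KO, and that of the mitotic genes -0.25 and -0.39. At an unadjusted p under 0.05 limma counted 3 S-phase genes and 1 mitotic gene in WT and 5 and 3 in KO, all with negative slopes, beside 7.20% (WT) and 8.73% (KO) of all genes with such a negative slope.

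The S-phase genes with the smallest p in WT were Ccne1 (-0.22 ± 0.082), E2f1 (-0.17 ± 0.072) and Mcm5 (-0.39 ± 0.18), for which the KO slopes were -0.17 ± 0.082, -0.16 ± 0.072 and -0.45 ± 0.18. In KO they were Mcm4 (-0.32 ± 0.095), Ccne2 (-0.26 ± 0.081) and Rrm1 (-0.11 ± 0.038), for which the WT slopes were -0.096 ± 0.095, -0.039 ± 0.081 and 0.00027 ± 0.038. Among the mitotic genes, Foxm1 came first in both genotypes, with -0.35 ± 0.16 in WT and -0.38 ± 0.16 in KO. It was followed in KO by Ccnb2 (-0.55 ± 0.23) and by Kif20a (-0.25 ± 0.12), a kinesin of the midzone. The smallest limma adjusted p was 0.20 in WT (Ccne1) and 0.082 in KO (Mcm4).

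With 1 slope shared by both genotypes, an alternative added after the values were seen, Ccne1 (-0.19), E2f1 (-0.17), Mcm5 (-0.42) and Foxm1 (-0.37 log2 per 24 h) passed with limma adjusted p values from 0.041 to 0.046, beside 3.85% of all genes that passed with a negative slope. The slopes rest on particular libraries. In another fit 12, 16 and 20 h were left out of both genotypes, a selection also made after the values were seen. In WT, 15 of 19 S-phase and 24 of 26 mitotic genes then had a positive slope, with medians of 0.10 and 0.31. In KO, 14 of 19 and 20 of 26 stayed negative, with medians of -0.060 and -0.095. The shares of all genes with these signs in that fit are not given here, so the counts have no background. When WT 56 h alone was left out, the WT medians were -0.20 and -0.56, and 19 of 26 mitotic genes had an unadjusted p under 0.05. The share of all genes with such a slope in that fit is not given here, so this count has no background. None of the mitotic genes then passed after adjustment, and of the S-phase genes E2f1 did. Other genes moved over the same hours: the fibroblast genes Col3a1 and Postn fell in both genotypes, by 0.32 and 0.60 in WT and by 0.37 and 0.49 log2 per 24 h in KO (limma adjusted p from 0.002 to 0.016). They were the 2 of 8 fibroblast markers called in each genotype, and 3 of the 8 had positive slopes in WT and 2 of the 8 in KO. The part of a changing mixture of cells in the slopes of the division genes was not tested.

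**Figure D4:**
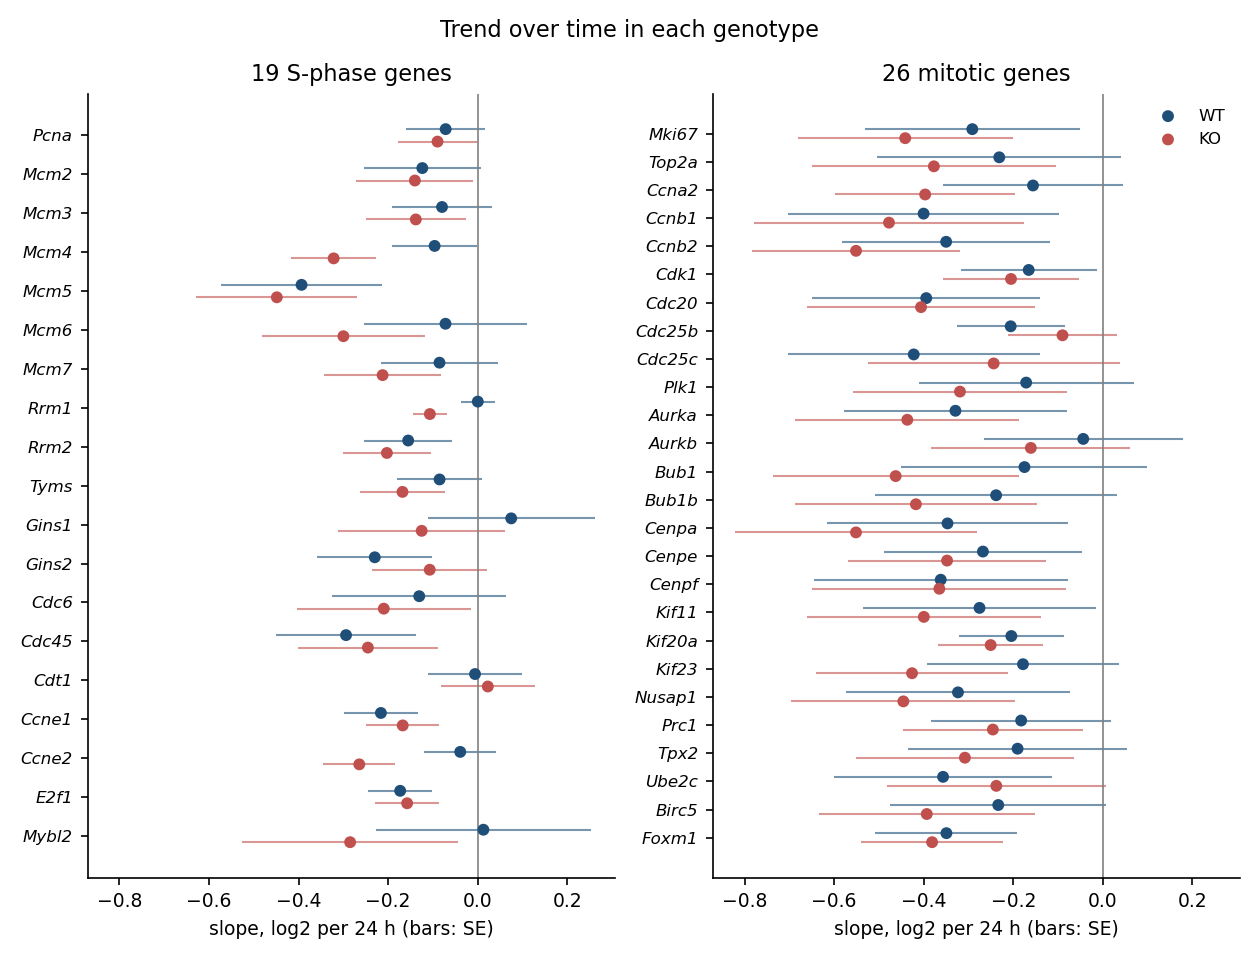
Slope over time (log2 per 24 h, horizontal axis) of each S-phase and mitotic gene in WT and KO, with bars of 1 SE from limma. Most points lie left of 0 in both genotypes, the WT and KO bars of a gene overlap in most rows, and none of the slopes had an adjusted p under 0.05.

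The slopes of the genotypes were also compared with each other. The difference in slope (KO minus WT) passed the test for none of the 45 genes, and for 0% of all genes, with a limma adjusted p of 0.79 at the lowest (Rrm1); at an unadjusted p under 0.05 it was again none of the 45, beside 6.38% of all genes. The differences ran from -0.30 (Mybl2) to 0.12 (Gins2) for the S-phase genes and from -0.29 (Bub1) to 0.18 log2 per 24 h (Cdc25c) for the mitotic genes. Their SE differed between genes, with 0.054 for Rrm1 and 0.43 for Ccnb1. How small a difference could be detected was not measured.

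The third comparison asked for a daily change, which is of interest because the clock is known to reach the cell cycle in several tissues. No S-phase or mitotic gene had a 24 h component that passed the test in WT or in KO (limma F test on the cosine and sine terms). Over all genes the test passed 0.0463% (7 genes) in WT and 0.0728% (11 genes) in KO. The study called cycling genes with another tool, MetaCycle, and other thresholds, and its counts are not set beside these. At an unadjusted p under 0.05 none of the 45 passed in WT and 1 of 45, Cdt1, in KO, beside 7.57% and 7.92% of all genes. The WT count depended on single libraries. Without WT 20 h it was 17 of 26 mitotic and 10 of 19 S-phase genes, beside 9.16% of all genes, without WT 36 h 5 mitotic genes (8.66%), without WT 40 h 7 mitotic genes and 1 S-phase gene (7.57%), and without the slope term 5 mitotic genes (8.09%). None passed after adjustment in these fits.

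The fitted amplitudes, from the mean to the peak, were larger than those of all genes at the median. The mitotic genes had a median of 0.34 log2 in WT and 0.17 log2 in KO and the S-phase genes 0.16 and 0.11 log2, beside 0.077 and 0.074 log2 for all genes. Tpx2, which starts microtubules around chromosomes, had the highest mitotic amplitude in WT (0.47 log2, 0.15 in KO), and Mybl2 the highest S-phase amplitude in WT (0.40 log2, 0.22 in KO). The smallest p in WT belonged to Mcm5 (amplitude 0.35 log2, limma adjusted p = 0.66) and Cdk1 (0.30 log2, 0.66), and in KO to Cdt1 (0.25 log2, 0.60) and Aurkb (0.31 log2, 0.83). Fitted peaks had a median of 11.6 h after dexamethasone (modulo 24 h) for the WT mitotic genes and 16.96 h for those of KO, and of 12.3 and 15.3 h for the S-phase genes, but no such phase belongs to a component that passed the test. A cosine of 20 h in place of 24 h gave 17 of 26 mitotic and 9 of 19 S-phase genes with an unadjusted p under 0.05 in WT, beside 8.95% of all genes, and none in KO, beside 6.60%, and none of them passed after adjustment. In WT the mitotic mean was high at 12 to 20 h and at 56 h and lay at 0.40 and 0.35 log2 at 32 and 36 h, between -0.036 log2 at 28 h and -0.013 log2 at 40 h. The 44 h sampled hold less than 2 full days.

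**Figure D5:**
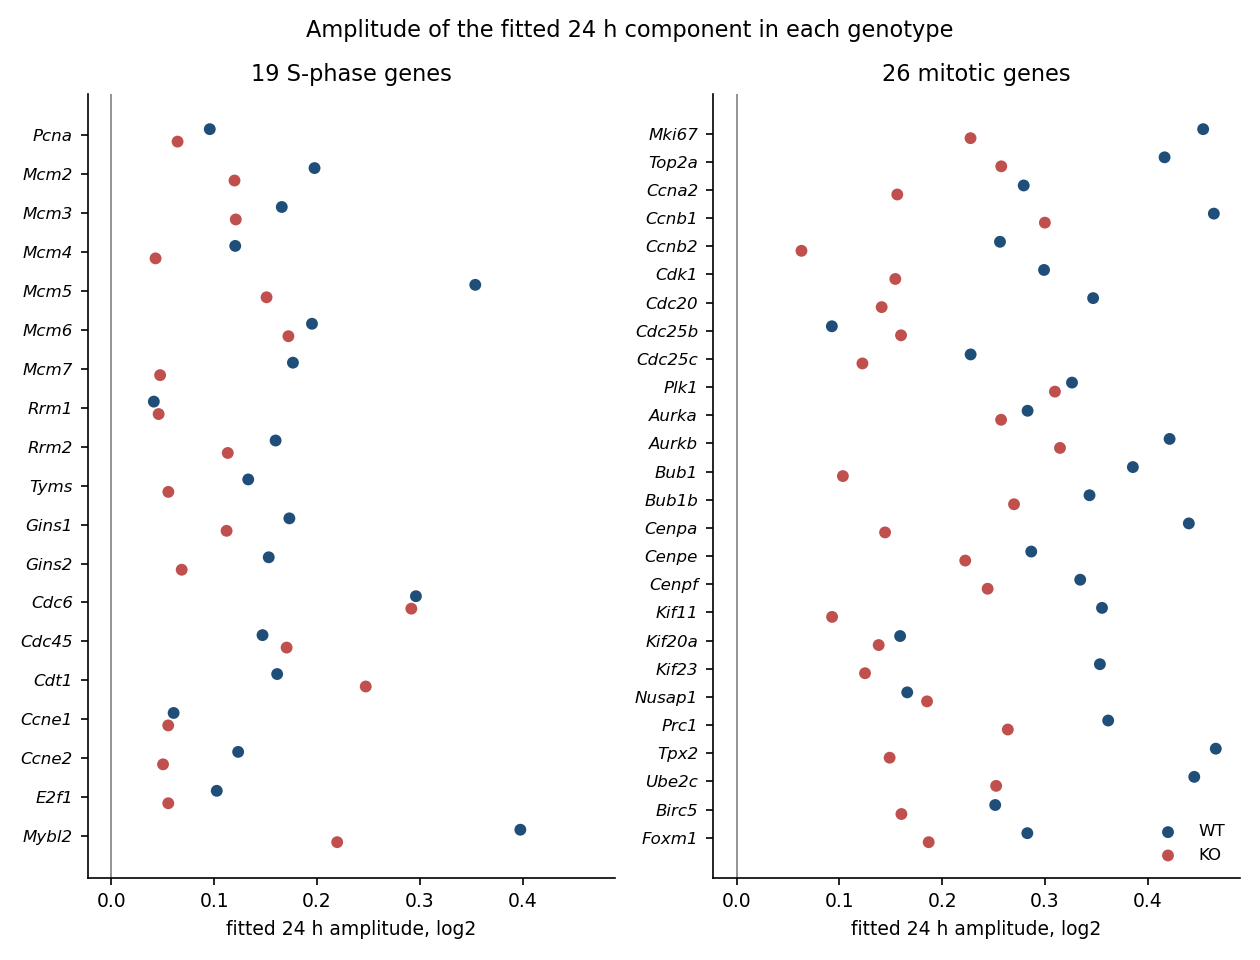
Amplitude of the fitted 24 h component (log2, horizontal axis, from mean to peak) of each S-phase and mitotic gene in WT and KO. WT points lie to the right of KO points for most mitotic genes, yet no amplitude in either genotype and no difference between genotypes had an adjusted p under 0.05.

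The difference in the 24 h component between genotypes likewise passed for none of the 45 genes and for 0% of all genes, and at an unadjusted p under 0.05 for none of the 45, beside 4.82% of all genes. The lowest unadjusted p values were 0.059 (Cdc6) and 0.12 (Mki67), and all limma adjusted p values were 0.9998. The larger WT amplitudes are therefore a description of these 12 libraries.

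Other genes of the same pathways gave few calls. Of 54 rows for 53 further S-phase genes (polymerases, origin and clamp-loader subunits, nucleotide enzymes and repair factors), 1 was higher in KO and none lower, beside 11.2% and 14.7% of all genes, with a median difference of 0.078 log2: Tk1, the thymidine kinase, had a mean of 1.37 ± 0.444 RPKM across WT libraries and 1.88 ± 0.410 RPKM across KO libraries (SD, n = 12; difference 0.46 ± 0.14 log2, limma adjusted p = 0.020). Gmnn, geminin, which keeps origins from being licensed again, differed by 0.24 log2 (limma adjusted p = 0.12). Of 59 further mitotic genes, 1 was higher and none lower, beside the same 11.2% and 14.7%, with a median difference of 0.23 log2: Anln, anillin of the contractile ring, had a mean of 2.12 ± 0.377 RPKM across WT libraries and 2.62 ± 0.203 RPKM across KO libraries (SD, n = 12; difference 0.31 ± 0.072 log2, limma adjusted p = 0.003). Iqgap3 and Ccnf followed with 0.25 and 0.42 log2 (limma adjusted p = 0.097 and 0.11). In these lists 46 of 54 and 57 of 59 estimates were higher in KO, beside 45.9% of all genes.

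Upstream of S phase, 21 genes of G1 (D cyclins and their kinases, pocket proteins, other E2Fs, MYC and DREAM subunits) had a median difference of 0.033 log2, with 1 gene higher and 1 lower in KO, beside 11.2% and 14.7% of all genes. Myc, the growth transcription factor, averaged 5.31 ± 0.485 RPKM over WT and 6.53 ± 0.663 RPKM over KO (SD, n = 12; 0.29 ± 0.055 log2, limma adjusted p = 4.6e-04), and Rbl2, the pocket protein p130 of the DREAM complex, 9.47 ± 0.337 and 8.78 ± 0.557 RPKM (-0.11 ± 0.032 log2, limma adjusted p = 0.014). Of 15 rows for 14 brakes of the cell cycle, 6 were higher in KO and none lower, beside the same shares of all genes. Cdkn1a, the inhibitor p21, was higher at 12 of 12 time points by 0.21 ± 0.042 log2 (limma, adjusted p = 7.1e-04). Both rows of Cdkn2a were higher, by 0.30 ± 0.062 and 0.26 ± 0.068 log2 (limma adjusted p = 0.001 and 0.007), and since they share exons their reads could be split between them. Btg1, Cdkn2b and Ccng1, which restrain division, were the other 3, with differences of 0.20, 0.11 and 0.12 log2. Whether the inhibitors and the S-phase genes that were higher in KO came from the same cells is not visible in bulk RNA.

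Trends in these lists were as sparse, beside 1.11% to 1.34% of all genes with a rising and 1.04% to 1.26% with a falling slope. Gtse1, a mitotic microtubule gene, fell in KO (-0.22 ± 0.050 log2 per 24 h, limma adjusted p = 0.023) and Ccnd3, a D cyclin, fell in WT (-0.15 ± 0.027 log2 per 24 h, limma adjusted p = 0.005), and no 24 h component passed in any of the 4 lists.

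Markers of the cell types present moved with the genotype, and their values stand beside the differences above; of all genes tested, 11.2% were higher and 14.7% lower in KO. Of 8 neuron markers 5 were lower in KO, with a median difference of -1.05 log2 over the 8, and their summed level ranged from 3.80 to 36.7 RPKM in WT and from 2.19 to 12.3 RPKM in KO. None of 7 neural progenitor markers tested was called. Epithelial markers were higher in KO for 6 of 8 (summed level 266 to 421 RPKM in WT and 430 to 649 RPKM in KO), endothelial markers for 4 of 8 (8.58 to 27.0 and 13.8 to 25.7 RPKM), macrophage markers for 4 of 8 (536 to 801 and 623 to 845 RPKM) and smooth muscle markers for 5 of 8 (293 to 396 and 315 to 449 RPKM). Of 8 fibroblast markers 3 were higher and 2 lower (2933 to 3464 and 3140 to 4100 RPKM), and of 9 rows for cardiomyocyte markers 7 were higher and 1 lower (43.0 to 74.0 and 51.5 to 94.8 RPKM). None of 8 endoderm markers was called (79.6 to 1026 and 84.0 to 1030 RPKM), nor any of the 4 pluripotency markers tested (12.4 to 20.5 and 13.7 to 20.1 RPKM for all 10, mostly Klf4) or the 1 erythroid marker tested (0.438 to 1.91 and 0.458 to 2.88 RPKM for all 8). The part of the cell mixture in the higher Ccne1, Rrm2, Cdc45 and Ccne2 of KO was not tested.

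Beyond these lists, the genes whose level followed that of the S-phase group most closely over the 24 libraries, after the mean of each genotype was taken out, were Nasp, Lmnb1, Hnrnpa1, Shcbp1 and H2afx, with Pearson r from 0.955 to 0.934. Those nearest to the mitotic group were Shcbp1, Hnrnpa1, Lmnb1, Arhgap11a and H2afx, with r from 0.946 to 0.933. These correlations describe 24 libraries that share their depth and cell mixture within each pool. Nasp is a histone chaperone, Lmnb1 encodes lamin B1 and H2afx a histone variant.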

How the data were processed

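PolyA RNA was sequenced as 101-bp paired-end reads in 12 WT and 12 KO libraries. Per the study's methods, reads were trimmed with Trimmomatic 0.36 and aligned to the mouse genome (mm10, the UCSC name of GRCm38) with STAR 2.5.4b, alignments with a mapping quality of at least 10 were kept with SAMtools, and exon reads were counted with HOMER. The authors deposited RPKM per gene, normalized to library totals of 1.43e+07 to 2.27e+07 in WT and 1.37e+07 to 2.17e+07 in KO. All columns of sample values were matched to a sample.

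From these values, log2(RPKM + 0.1) was analysed with limma 3.58.1 in R 4.3.3 (tables and plots: Python 3.11.15). Genotype was tested over all 24 libraries without a block. Slope, cosine and sine of a 24 h period were fitted for each genotype in 1 model. Benjamini-Hochberg adjustment ran over the 15112 genes with a mean above 0.5 RPM in WT or KO, with calls at an adjusted p under 0.05. MetaCycle, the rhythm tool of the study, was not run. Scripts were tested on simulated data. Alternatives were pseudocounts, filters, quantile normalization, covariates, periods, parts of the time course and leaving out each library.

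The 45 genes and the gene lists were chosen with earlier results of these data known. Named genes were a preset group of 17 and the 3 with the smallest p of each test and group, to which the genes called for genotype were added. Over all genes tested, libraries of the same hour did not deviate together in every pair and were not treated as paired. The mean correlation of deviations was 0.16, from -0.18 to 0.39 over 12 pairs. It was not computed for the 45 genes alone.
One gene of the lists that the naming rule covers is not reported here.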

Additional observations from a re-analysis of the deposited data

How the results depend on the processing

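The count of S-phase genes higher in KO was 4, beside 11.2% of all genes higher. With a mean of at least 1 RPKM it was 2 (11.9% of all genes). That filter removed Cdc45 and Ccne2, and also Gins1, Cdc6 and Mybl2, whose means were below 1 RPKM in both genotypes. The count was 2 without a filter (4.17%), 1 with 12 to 32 h alone (3.22%) and 2 with 36 to 56 h alone (5.94%). It lay between 2 and 7 when 1 library was left out, a range given without the shares of all genes in those fits. With the time point as a block it was 6, with E2f1 and Mcm3 added (12.1% of all genes), and the count of mitotic genes was 3 (Bub1b, Cdk1 and Prc1) in place of 0; without the block that count was 0 or 1 when 1 library was left out. Slopes without the 24 h terms gave 2 S-phase genes in KO (Ccne2 and Mcm4, both falling, beside 1.86% of all genes that fell), and leaving out 1 library gave 0 or 1 in either genotype. Apart from the genes removed by the filter of 1 RPKM, the cause of these changes was not tested. With 12 to 32 h or 36 to 56 h alone, the hours and the number of libraries changed together. The genotype estimates of Mcm4 (-0.043) and Rrm1 (-0.041) turned with 36 to 56 h alone, and that of Rrm1 also without 12, 16 and 20 h (-0.022) and with 1 library left out (from -0.0082 to 0.023). Without 12, 16 and 20 h, WT slopes turned for Mcm4 (0.15), Ccne2 (0.097), Ccna2 (0.31), Ccnb2 (0.35), Bub1 (0.48), Kif20a (0.0098) and Kif23 (0.48), and the KO slope of Bub1 (0.028). With 1 library left out, WT slopes ranged from -0.022 to 0.034 for Rrm1, from -0.10 to 0.016 for Ccne2 and from -0.46 to 0.020 for Bub1. The shorter promoter window ran from 100 bases before to 50 after the start. E2F-like letters were found there in 33.3% of S-phase and 5% of mitotic promoters, beside 9.69% of all promoters matched. No 24 h component or difference between genotypes in slope or 24 h component passed under any alternative run. Few fragments behind the lowest genes and 1 library at each hour limit what can be detected.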

Other observations

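Among the cell type markers, 2 further genes changed over time. Emcn, a surface protein of endothelial cells, fell in KO by 0.77 ± 0.19 (SE) log2 per 24 h (limma, adjusted p = 0.038). It was the 1 of 8 endothelial markers called, and of the 8 slopes in KO 3 were positive and 5 negative. Cd68, a lysosomal protein of macrophages, rose in KO by 0.30 ± 0.068 (SE) log2 per 24 h (limma, adjusted p = 0.025), the 1 of 8 macrophage markers called, with 4 of the 8 slopes positive and 4 negative. Of all genes tested, 1.34% rose and 1.04% fell in KO. No marker of neurons, neural progenitors, smooth muscle, endoderm, epithelium or cardiomyocytes had a slope that passed in either genotype. The difference in slope between genotypes passed for none of the 15112 genes, these 2 included.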
